A study of Rattus norvegicus with 6 samples.

Results

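The microRNAs of red blood cells were measured in small RNA libraries of rat liver, as a gauge of the blood RNA carried in each organ. A tag is a distinct read sequence, and a tag was assigned to a miRNA where its first 18 bases equalled those of the RefSeq mature sequence. The set holds miR-451-5p, miR-144-3p, miR-144-5p and miR-486. The first 3 of these 4 were counted, and miR-486 was not analysed here. They make up 3 of 675 known rat mature sequences, of which 365 had at least 1 read, and 47 of 1528721 different tags. The libraries came from male Wistar rats, and the study calls the libraries of a group biological repeats. The sample labels give an age of 4 months, whereas the study's methods give a clearly higher age, and this conflict was not resolved. The 3 NAFLD (nonalcoholic fatty liver disease) rats had been fasted and then kept for a week on a diet rich in starch, and their livers were picked among those with more hepatic triglyceride. The 3 normal rats had stayed on standard chow, and their livers were picked at random. No knockout, transgene or drug was involved in either group. The methods describe freezing of whole tissue and no flushing of blood from the organ. In such bulk tissue, fewer red cells and less of a miRNA per red cell cannot be told apart.

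MicroRNAs are short RNAs that guide Argonaute proteins to messenger RNAs through their seed, the bases 2 to 8. Most hairpin precursors are cut by Drosha and then by Dicer, which removes the loop. The miR-451 hairpin has a stem too short for Dicer. It is sliced within its 3′ arm by Argonaute 2, and the product, which still runs through the loop, is trimmed back from its 3′ end by the exonuclease PARN. The neighbouring miR-144 is a Dicer product with a 5p and a 3p arm. Both hairpins lie in 1 transcript that GATA1 activates in red cell precursors, and their miRNAs remain in circulating erythrocytes.

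The mature sequences are shown because the seed names the targets and the last bases are what the read ends are compared with. They are those of RefSeq for build GRCr8, written 5′ to 3′ with the seed in capitals.
rno-miR-451-5p: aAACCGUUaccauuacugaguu
rno-miR-144-3p: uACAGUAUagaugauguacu
rno-miR-144-5p: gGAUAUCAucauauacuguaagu
The 3 seeds differ, and no other listed rat miRNA had the same bases 2 to 8. Bases 2 to 7 of miR-144-3p were shared with 2 others, miR-101a-3p and miR-101b-3p. The hairpins lie on the plus strand, mir-144 at chr10:63459397-63459479 and mir-451 at chr10:63459569-63459640, with 89 bases between them. They follow with the counted miRNAs in capitals, since the place of the loop relative to each miRNA bears on the read ends.
rno-mir-451: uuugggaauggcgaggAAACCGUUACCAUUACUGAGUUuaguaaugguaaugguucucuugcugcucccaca
rno-mir-144: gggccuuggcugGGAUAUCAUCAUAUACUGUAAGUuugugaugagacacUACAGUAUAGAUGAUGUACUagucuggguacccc
In the minimum energy fold, the mir-451 hairpin had a loop of 4 bases between positions 34 and 39, and the listed miR-451-5p spans positions 17 to 38, which takes in that whole loop. The mir-144 hairpin had a loop of 6 bases between positions 37 and 44. There, miR-144-5p ends at position 35 and miR-144-3p begins at position 50, so neither reaches the loop.

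Each library held 11601058 to 11880695 clean reads. Known miRNAs took 75.7% to 79.2% of these in NAFLD and 85.7% to 91.3% in normal livers. The hepatocyte marker miR-122-5p alone took 44.5% to 46.5% of clean reads in NAFLD and 56.1% to 59.6% in normal livers. In the other listed hepatocyte miRNAs the groups overlapped. Their edgeR log2 fold change of NAFLD over normal was 0.27 for miR-122-3p, from the same hairpin, and 0.04 for miR-192-5p. It was -0.04 for miR-194-5p and -0.38 for miR-148a-3p. NAFLD replicates 2 and 3 and normal replicate 2 stood apart. Over 50 abundant tags, the median share of reads with a substitution at base 4 from the 5′ end was 0.808% to 0.892% in these libraries and 0.0431% to 0.0460% in the others. Results are therefore also given with 1 substitution allowed in the first 18 bases.

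miR-451-5p, which promotes late red cell maturation, was the most abundant of the members. Its reads numbered 572, 212 and 447 in NAFLD replicates 1 to 3 and 402, 332 and 229 in normal replicates 1 to 3. In TPM, the reads per 1000000 clean reads, these are 49.3, 18.03 and 37.8 in NAFLD livers and 33.9, 27.97 and 19.3 in normal livers. Among exact matches the NAFLD group held both the highest and the lowest library, and the groups overlapped; with 1 substitution allowed, as given further on, normal replicate 3 was lowest. By its mean of 31.1 TPM it ranked 61 of the 365 miRNAs with reads.

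miR-144-3p, the arm that shares most of its seed with the miR-101 family, had 205, 70 and 149 reads in NAFLD replicates 1 to 3 and 106, 40 and 83 reads in normal replicates 1 to 3. The levels were 17.7, 5.95 and 12.6 TPM and 8.94, 3.37 and 6.99 TPM. NAFLD replicates 1 and 3 lay above every normal library, and NAFLD replicate 2 lay below normal replicates 1 and 3. With 1 substitution allowed it stood at 7.23 TPM, just above normal replicate 3 at 7.07 TPM. miR-144-5p, the other arm of the same hairpin, had 9.31, 3.06 and 5.25 TPM in NAFLD livers and 7.51, 3.62 and 4.55 TPM in normal livers, from 36 to 108 reads each. The groups overlapped here too, with NAFLD replicate 1 highest and NAFLD replicate 2 lowest. Exact Poisson intervals at 95%, which cover counting error only, were from 45.3 to 53.5 TPM for miR-451-5p in NAFLD replicate 1 and from 15.7 to 20.6 TPM in NAFLD replicate 2. The livers of 1 group differed by more than counting error (chi-square per degree of freedom from 9.36 to 83.7), by 2.73 times for miR-451-5p, 2.97 times for miR-144-3p and 3.04 times for miR-144-5p between the highest and lowest NAFLD library. Among normal libraries these ratios were 1.76, 2.65 and 2.07. With 1 substitution allowed they were 2.17, 2.45 and 2.10 in NAFLD and 1.88, 2.12 and 1.65 in normal livers.

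**Figure D1:**
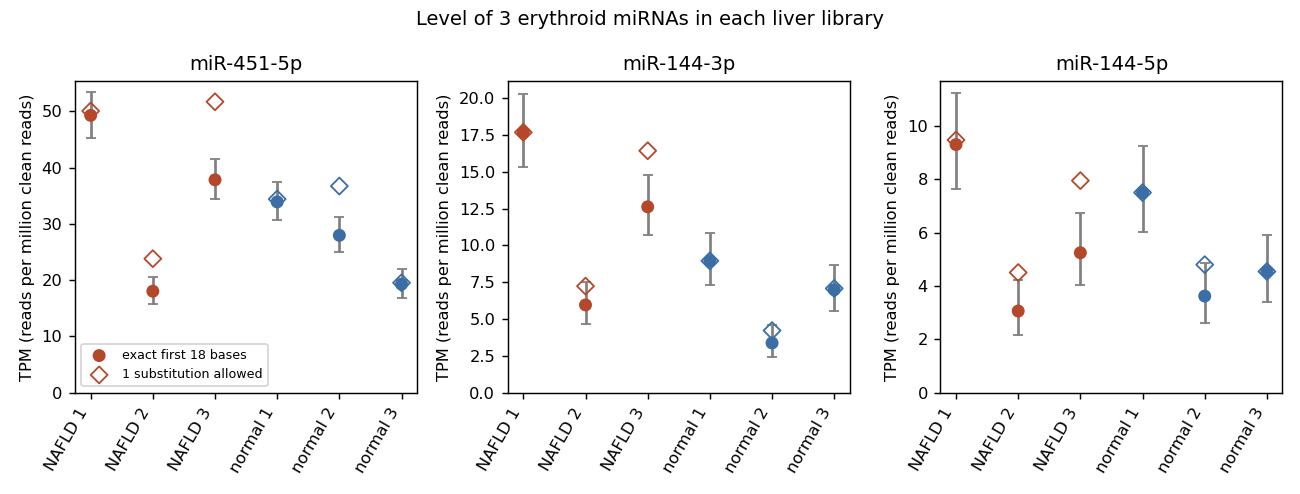
Level of each miRNA in TPM (vertical axis) in each library, with NAFLD in red and normal in blue. Filled circles count exact matches with 95% Poisson bars, and open diamonds also count reads with 1 substitution, which lie well above the circles only in NAFLD replicates 2 and 3 and normal replicate 2. For miR-451-5p the exact values run from 18.03 to 49.3 TPM with both extremes in the NAFLD group.

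None of the 3 miRNAs passed the test between NAFLD and normal livers. Means were 35.1 ± 15.8 TPM in NAFLD and 27.1 ± 7.36 TPM in normal livers for miR-451-5p (SD, n = 3 each; two-sided exact permutation test, p = 0.5). They were 12.1 ± 5.88 and 6.43 ± 2.83 TPM for miR-144-3p (SD, n = 3 each; exact permutation p = 0.3) and 5.87 ± 3.17 and 5.23 ± 2.03 TPM for miR-144-5p (SD, n = 3 each; exact permutation p = 0.7). With 3 libraries a group, no p under 0.1 can be reached. Among the 167 miRNAs tested, TPM groups did not overlap in 4.19%, with 2.99% higher and 1.2% lower in NAFLD. In edgeR's quasi-likelihood test over 167 miRNAs, the log2 fold change of NAFLD over normal was 0.37 (standard error 0.46) for miR-451-5p, 0.91 (standard error 0.49) for miR-144-3p and 0.17 (standard error 0.47) for miR-144-5p, and the Benjamini-Hochberg adjusted p was 0.986 for each. The median log2 fold change of all miRNAs tested was 0.02. The share of tested miRNAs called in either direction at an adjusted p of 0.05 was 0.599%, which is miR-122-5p alone. DESeq2, which scaled by its own size factors and not by clean reads, called miR-1b instead. At an unadjusted p under 0.05, edgeR named 3 miRNAs (1.8%) and DESeq2 named 8. The unadjusted p of miR-144-3p was 0.0890 in edgeR, and its adjusted p was 0.331 in DESeq2.

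The sum of the 3 miRNAs, taken as the measure of red cell RNA, was 76.3, 27.0 and 55.7 TPM in NAFLD replicates 1 to 3 and 50.4, 35.0 and 30.8 TPM in normal replicates 1 to 3. Among exact matches NAFLD replicate 1 had the most and NAFLD replicate 2 the least, and the group means of 53.0 ± 24.7 and 38.7 ± 10.3 TPM differed by less than the spread between livers (SD, n = 3 each; exact permutation p = 0.5). With 1 substitution allowed the sums were 77.2, 35.5 and 76.1 TPM against 50.9, 45.7 and 31.1 TPM, so that normal replicate 3 had the least (exact permutation p = 0.3). The differences in exact matches within the libraries of like substitution rate were 35.7 TPM for NAFLD replicate 1 against normal replicates 1 and 3, and 6.41 TPM for NAFLD replicates 2 and 3 against normal replicate 2. Relative to the reads of miR-122-5p, which themselves fell in NAFLD, miR-451-5p numbered 111, 39.2 and 81.4 per 1000000 in NAFLD livers and 60.5, 47.5 and 32.4 per 1000000 in normal livers, again with overlap. Exact matches to other miRNAs rich in red cells, listed further on, summed to 754, 433 and 543 TPM in NAFLD replicates 1 to 3. In normal replicates 1 to 3 they summed to 719, 361 and 653 TPM. There NAFLD replicate 1 was again highest, but normal replicate 2 was lowest. NAFLD replicate 1 was also highest for hepatocyte miR-192-5p, at 28269 TPM against 11116 to 25426 TPM elsewhere, and for miR-194-5p. It was not highest for miR-122-5p, miR-122-3p or miR-148a-3p.

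The rule of 18 exact bases counted fewer of the reads in some libraries than in others. Of the miR-451-5p reads with at most 1 substitution in those bases, 24.3%, 26.8% and 23.9% carried 1 in NAFLD replicates 2 and 3 and normal replicate 2. The corresponding shares were 1.55%, 1.47% and 1.29% in NAFLD replicate 1 and normal replicates 1 and 3. For NAFLD replicate 3 the 95% Wilson interval was from 23.5% to 30.5%, and for NAFLD replicate 1 it was from 0.817% to 2.92%. The median over all tested miRNAs was 28.2% to 28.6% in the former libraries and 0.901% to 1.27% in the latter, so the members resembled other miRNAs in this respect. In miR-144-5p the share was 32.1%, 34.0% and 24.6% in the same 3 libraries, and in miR-144-3p it was 17.6%, 23.2% and 20%. In NAFLD replicate 1, 0 of 205 reads of miR-144-3p carried a substitution, which allows a share of up to 1.46%.

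The substitutions fell at a few positions of each miRNA, given here as the base of the mature sequence in DNA letters, its position from 1 at the 5′ end, and the base read. In miR-451-5p, C4A had 17 reads in NAFLD replicate 2, 43 in NAFLD replicate 3, 21 in normal replicate 2 and 0 in each of the other libraries. A15C was carried by 10, 33 and 24 reads and C4G by 13, 26 and 18 reads in the same order, both with 0 reads elsewhere. G6T was carried by 12, 31 and 13 reads, and by 1 read in normal replicate 3. Of these, C4A, C4G and G6T lie in the seed. In miR-144-3p the most frequent was A14C, with 40 reads in all, and in miR-144-5p it was A8C, with 35 reads, none of them outside these 3 libraries. With 1 substitution allowed, miR-451-5p stood at 50.1, 23.8 and 51.7 TPM in NAFLD livers and 34.4, 36.7 and 19.5 TPM in normal livers. NAFLD replicate 3 then lay level with NAFLD replicate 1, normal replicate 3 was the lowest library, and the groups still overlapped (exact permutation p = 0.3). The edgeR log2 fold changes became 0.47, 1.03 and 0.38 for miR-451-5p, miR-144-3p and miR-144-5p, with an adjusted p of 0.734, 0.583 and 0.784.

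**Figure D2:**
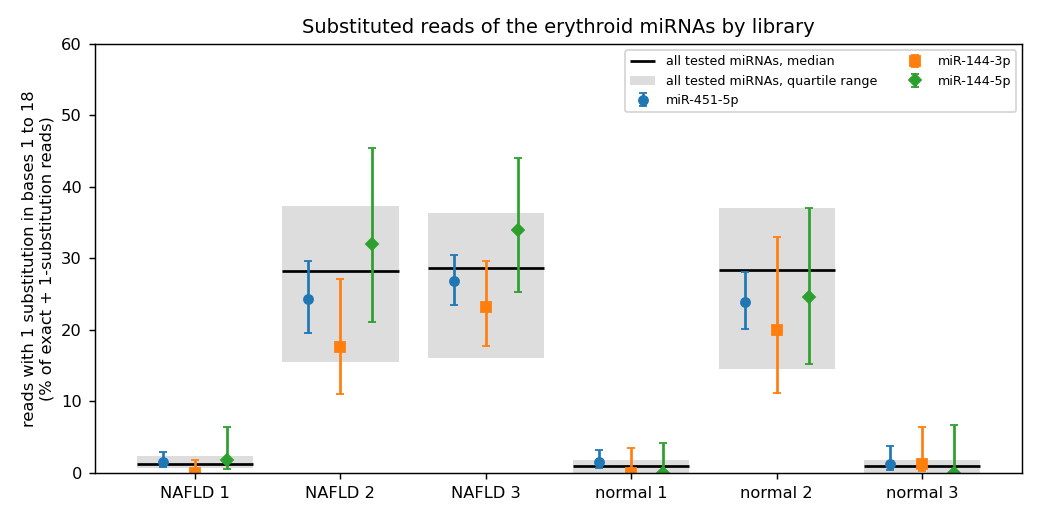
Share of reads with 1 substitution in their first 18 bases (vertical axis, % of exact and substituted reads) for each library, with 95% Wilson bars. Grey boxes span the quartiles and black lines mark the median of all 167 tested miRNAs, near 1% in NAFLD replicate 1, normal replicate 1 and normal replicate 3, but near 28% in the remaining libraries.

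Within the miR-144 hairpin, the 5p arm had fewer reads than the 3p arm in all libraries but normal replicate 2. miR-144-5p made up 34.5%, 34.0% and 29.4% of the reads of both arms in NAFLD replicates 1 to 3 and 45.6%, 51.8% and 39.4% in normal replicates 1 to 3. All NAFLD libraries lay below all normal libraries, with means of 32.6% ± 2.81 and 45.6% ± 6.20 (SD, n = 3 each; exact permutation p = 0.1, the smallest possible). This was 1 of 29 comparisons between groups made on the members, and its Benjamini-Hochberg adjusted p was 0.829 (exact permutation). Among 36 hairpins with at least 60 reads on each arm, the groups did not overlap in 8.33%, all of them lower in NAFLD. The counting error is wide at these depths, since the 95% Wilson interval was from 25.6% to 43.4% in NAFLD replicate 2 and from 31.6% to 47.8% in normal replicate 3. With 1 substitution allowed the shares were 34.9%, 38.4% and 32.6% against 45.6%, 53.3% and 39.1%, so that NAFLD replicate 2 and normal replicate 3 were nearly level. The difference was -8.02 percentage points within the libraries of low substitution rate and -20.1 points within those of high rate.

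The miRNAs of the 2 neighbouring hairpins did not keep a fixed ratio. Per 100 reads of miR-451-5p there were 35.8, 33.0 and 33.3 reads of miR-144-3p in NAFLD replicates 1 to 3 and 26.4, 12.05 and 36.2 in normal replicates 1 to 3. The NAFLD libraries lay close together, whereas normal replicate 2 stood far below the rest (exact permutation p = 0.4 between groups). Allowing 1 substitution left normal replicate 2 at 11.5. Of miR-144-5p there were 12.95 reads per 100 in normal replicate 2 and 13.9 to 23.6 in the other libraries.

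**Figure D3:**
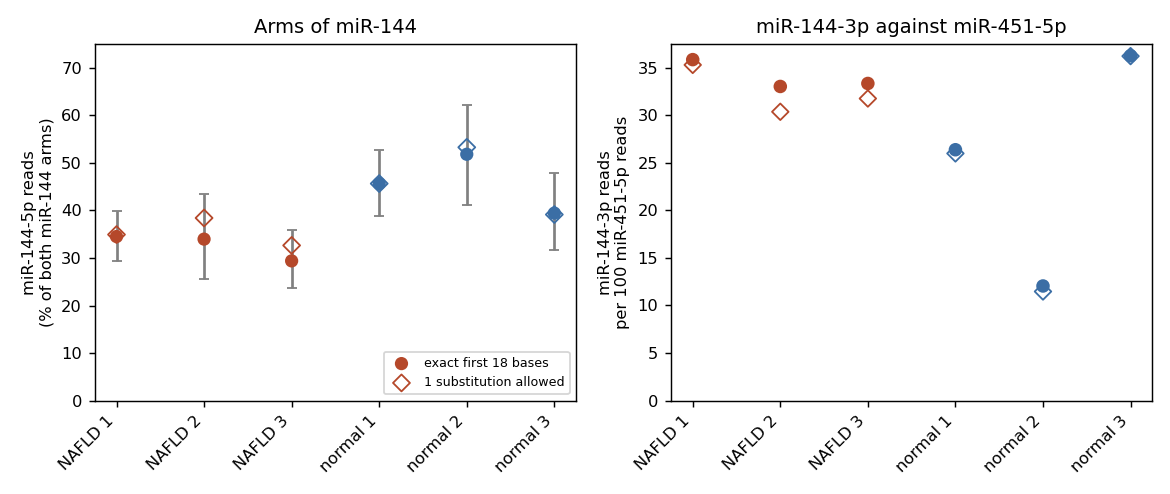
Left, miR-144-5p as % of the reads of both miR-144 arms in each library, with 95% Wilson bars. Right, miR-144-3p reads per 100 miR-451-5p reads. NAFLD is red and normal blue, filled circles are exact matches and open diamonds allow 1 substitution. The arm shares of the NAFLD libraries, 29.4% to 34.5%, lie below those of the normal libraries, and in the right panel normal replicate 2 is lowest at 12.05.

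Reads of miR-451-5p formed a ladder of 3′ ends at single-base steps. The tags below match the hairpin over their whole length, with bases beyond the listed 22 nt mature sequence in capitals, and are shown because their last bases carry this result.
21 nt: aaaccgttaccattactgagt
22 nt: aaaccgttaccattactgagtt
23 nt: aaaccgttaccattactgagttT
24 nt: aaaccgttaccattactgagttTA
25 nt: aaaccgttaccattactgagttTAG
26 nt: aaaccgttaccattactgagttTAGT
27 nt: aaaccgttaccattactgagttTAGTA
The most read form was not the listed one but that of 23 nt, with 361, 151 and 319 reads in NAFLD replicates 1 to 3 and 298, 226 and 157 reads in normal replicates 1 to 3. The listed form of 22 nt had 79, 25 and 36 reads and 30, 32 and 16 reads. The form of 24 nt had 63, 23 and 53 reads in NAFLD livers and 52, 39 and 39 reads in normal livers. Below 22 nt the ladder faded, with 39 reads of 21 nt over all libraries and 4 of 20 nt. Above 24 nt it did not fall evenly, since the form of 25 nt had 44 reads and that of 26 nt had 79, and only 1 read reached 27 nt. The 26 nt form was the more frequent of the 2 in 5 of the 6 libraries, and both had 5 reads in normal replicate 1. Over all libraries 69.3% of miR-451-5p reads had its most frequent length, against a median of 55.0% among miRNAs with at least 500 reads. Only 18 of those miRNAs had a higher share, so by this measure most had more spread lengths. These lengths count all reads, also those with added bases that the hairpin does not encode. Such bases were rarer on miR-451-5p than on other miRNAs, as given further on. Reads of 25 nt or more were 5.83% of miR-451-5p against a median of 0.94%, with 22 miRNAs higher. Reads at least 2 bases above the most frequent length were 5.83% against a median of 4.27%, with 35 higher. The contrast was larger among reads that match the hairpin to their end. There, 5.71% of miR-451-5p reads lay at least 2 bases above the most frequent length. The median over 99 miRNAs with at least 300 reads was 0.04%, and 10 of them were higher. The longest miR-451-5p read ended at hairpin position 43, inside the 3′ arm of the stem.

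Most miR-451-5p reads therefore ran through the loop. Of the reads that match the hairpin to their end, those whose last base lay beyond the predicted loop, at position 39 or later, were 81.0%, 86.6% and 90.7% in NAFLD replicates 1 to 3 and 90.9%, 89.1% and 92.5% in normal replicates 1 to 3. NAFLD replicate 1 had the lowest share, and the groups overlapped (exact permutation p = 0.2). Over all libraries the share was 87.7%. Among 59 miRNAs on the 5′ arm of their hairpin with at least 300 reads, the other 58, miR-144-5p included, had a share of 0. The end beyond the loop thus set miR-451-5p apart among the miRNAs compared, as a description of pooled reads and of predicted folds.

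**Figure D4:**
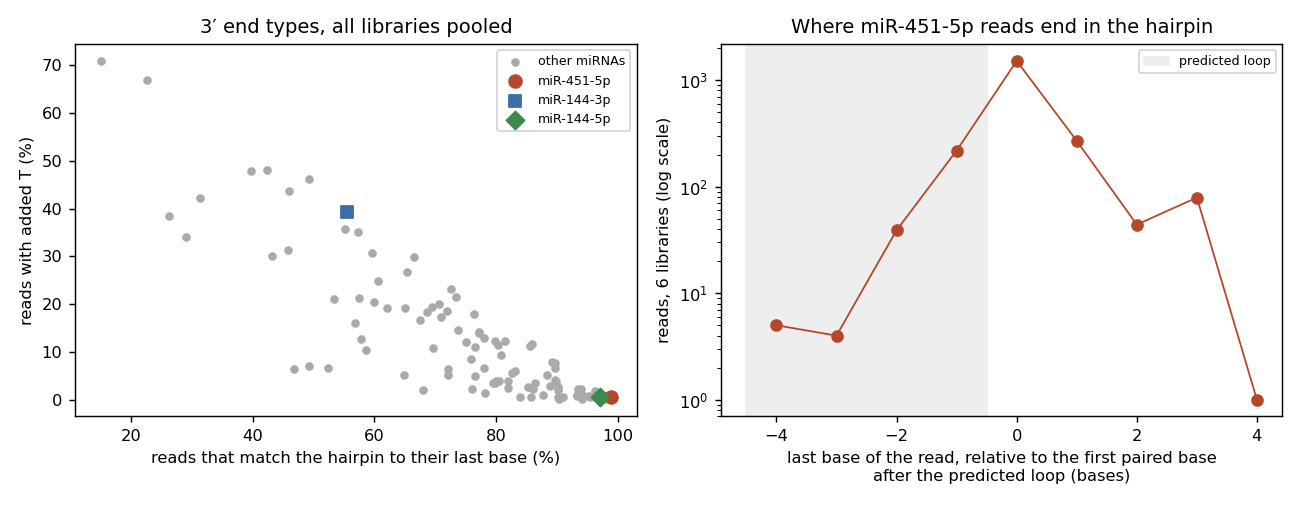
Left, reads that match the hairpin to their last base (horizontal axis, %) against reads with added T (vertical axis, %) for 99 miRNAs, all libraries pooled; miR-451-5p lies at the far right with 99.0% and 0.501%, and miR-144-3p high with 39.2% added T. Right, number of miR-451-5p reads (log scale) by the place of the last base relative to the first paired base after the predicted loop (grey), with the peak of 1512 reads at that base.

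The distribution of miR-451-5p ends did not separate the groups. Reads of 23 nt were 63.1%, 71.7% and 72.3% of all miR-451-5p reads in NAFLD livers and 74.4%, 68.7% and 69.0% in normal livers. Those of 24 nt or longer were 18.01%, 15.1% and 18.6% against 16.7%, 20.5% and 23.6%, or 17.2% ± 1.86 and 20.2% ± 3.46 (SD, n = 3 each; exact permutation p = 0.3). In normal replicate 3, which rests on 229 reads, the 95% Wilson interval was from 18.5% to 29.5%. NAFLD replicate 1 had the most reads of 22 nt, at 13.8%, and of 21 nt or fewer, at 5.07% against 0.437% to 1.49% elsewhere. The mean length was 23.1 nt ± 0.0825 in NAFLD and 23.2 nt ± 0.0772 in normal livers (SD, n = 3 each; exact permutation p = 0.2).

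Bases that the hairpin does not encode were rare on miR-451-5p and common on miR-144-3p. Over all libraries 99.0% of miR-451-5p reads matched the hairpin to their last base, from 98.2% to 99.6% per library. This was the highest share of 99 miRNAs, whose median was 77.2%. The hairpin goes on with U and then A after the listed end, so a U or an A added there by a transferase would read as encoded, and the share may hold such bases. Reads of miR-451-5p with added T were 11 of 2194, and with added A 3.

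The miR-144-3p ends were of another kind. Its listed 20 nt are followed by A and G in the hairpin. The tag of 21 nt that ends in this A was the most frequent, with 64, 26 and 50 reads in NAFLD replicates 1 to 3 and 53, 14 and 37 reads in normal replicates 1 to 3. Only 55.6% of miR-144-3p reads matched the hairpin throughout. An A added after the listed 20 nt would read as encoded. This share may therefore hold such bases, and the share with added A may miss them. Reads with added T were 41.0%, 27.1% and 43.0% in NAFLD livers and 37.7%, 37.5% and 41.0% in normal livers. The pooled share of 39.2% compares with a median of 7.96% over the 99 miRNAs, of which 7 had more. Groups did not differ in it beyond their spread (exact permutation p = 1). Added A made up 15.0% of miR-144-3p reads in normal replicate 2, from 40 reads in all, and 1.20% to 6.71% elsewhere.

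Reads of 20 nt, the length of the listed miR-144-3p, took 18.5%, 25.7% and 15.4% of its reads in NAFLD livers and 7.55%, 12.5% and 13.3% in normal livers. The groups did not overlap (exact permutation p = 0.1, adjusted p = 0.829 over 29 comparisons), on 5 to 38 reads per library, of which all but 1 were the listed form. The TPM of the listed 20 nt tag alone was likewise higher in all NAFLD libraries, a pattern shown by the exact mature tag of 4.19% of tested miRNAs, while in either direction 7.78% showed no overlap. The comparison was singled out after its values were seen. In miR-144-5p, reads of 23 nt, the listed length, dominated with 65.1% to 77.8% of reads per library. The listed form itself was 282 of these 287 reads. Of all miR-144-5p reads, 97.2% matched the hairpin throughout. In normal replicate 2, the longer forms took more of both arms, with 23.3% of miR-144-5p reads at 24 nt against 5.56% to 11.1% elsewhere and 40% of miR-144-3p reads at 22 nt against 19.8% to 26.8%.

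**Figure D5:**
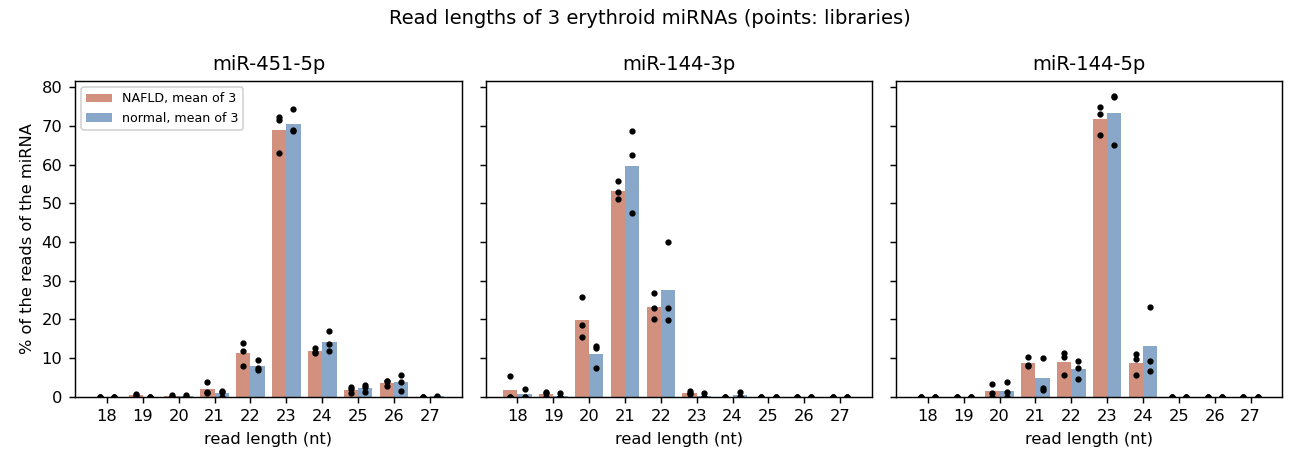
Read length (horizontal axis, nt) against the share of each miRNA's reads (vertical axis, %). Bars are means of 3 NAFLD or 3 normal libraries and points are the libraries. miR-451-5p peaks at 23 nt and alone reaches 25 to 27 nt, miR-144-3p peaks at 21 nt, and miR-144-5p at 23 nt.

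The 5′ ends were far more uniform. Of the miR-451-5p reads that match the hairpin within 3 bases of the listed start, 2171 began at that start and 4 elsewhere. For miR-144-5p these counts were 381 and 8, and for miR-144-3p they were 363 and 5. Base 1 of each member, and with it the seed, was thus the same in nearly all hairpin-matching reads. Outside these starts the mir-451 hairpin gave 2 reads and the mir-144 hairpin 0. The listed miR-451-3p, on the opposite arm, had 1 read in NAFLD replicate 1 and 0 in the other libraries, where a count of 0 allows up to 0.253 to 0.255 TPM. This was 0.0456% of the reads of both arms, and 33 of 92 hairpins had a lower share on their minor arm.

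Other miRNAs rich in red cells did not pass the test either. Of 8 such miRNAs listed beside the members, 5 were tested, and 0 passed in edgeR, with a median log2 fold change of -0.23 against 0.02 for all tested. They are not particular to red cells. miR-16-5p, which represses cell cycle genes, stood at 157, 44.2 and 64.8 TPM in NAFLD and 147, 47.5 and 119 TPM in normal livers. miR-25-3p, of the miR-106b-25 cluster, stood at 236 to 283 TPM and 184 to 300 TPM. In neither did the groups separate.

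Of 6 white cell and platelet miRNAs listed, 3 were tested and 0 passed, and their summed level was 26.5 to 39.4 TPM in NAFLD and 20.2 to 42.7 TPM in normal livers. miR-223-3p, the marker of neutrophils and platelets, had 1.01 to 3.03 TPM over all libraries, and miR-142-3p, present throughout blood cells, had at most 4 reads in any library. The other tested members were miR-142-5p, from the same hairpin as miR-142-3p, at 2.61 to 11.8 TPM, and miR-146a-5p, which damps inflammatory signalling and is not particular to blood, at 16.3 to 29.3 TPM. The summed list exceeded miR-451-5p in 4 of the 6 libraries. Of 2 endothelial forms, miR-126a-3p and miR-126a-5p, 0 passed, with summed levels of 23.5 to 48.4 and 14.7 to 41.1 TPM.

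Striated muscle miRNAs differed among libraries. Of 4 listed, 2 were tested and 0 passed, and the summed level was 42.4 to 68.0 TPM in NAFLD and 20.98 to 40.8 TPM in normal livers. miR-499-5p, encoded in a myosin gene, made up most of it. Its TPM was higher in every NAFLD library than in every normal one, as in 2.99% of tested miRNAs. miR-1-3p, the main muscle miRNA, reached 9.74 TPM in NAFLD replicate 1, the library with the most exact matches to all 3 erythroid miRNAs, and 0.935 to 2.95 TPM in the others. The defining muscle miRNA miR-133a-3p, which shares its first 18 bases with miR-133b-3p, had 0 or 1 read per library. miR-206-3p, also too low to be tested, had 19 reads in NAFLD replicate 1 and 0 to 10 elsewhere. The part of any of these cell types in the erythroid values was not tested.

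By profile across the 6 libraries, the closest members were miR-451-5p and miR-144-5p, with a root mean square difference of 0.29 between their centred log2(TPM + 1) values. The added 1 narrows differences at low TPM. On this scale the libraries spanned 1.40 for miR-451-5p, 2.10 for miR-144-3p and 1.34 for miR-144-5p. The difference was 0.48 between miR-451-5p and miR-144-3p, and 0.40 between the arms of miR-144. The median difference from miRNAs of at least 10 TPM was 0.56 for miR-144-3p and 0.39 for miR-144-5p. The difference of 0.40 between the arms thus lay below the median of miR-144-3p and near that of miR-144-5p. Among 86 other miRNAs of at least 10 TPM, the nearest to miR-451-5p were miR-1839-5p at 0.35, miR-93-5p at 0.37 and miR-342-3p at 0.38, against a median of 0.56. The nearest to miR-144-3p were miR-378a-3p at 0.31, miR-499-5p at 0.34 and miR-181a-5p at 0.34. The nearest to miR-144-5p were miR-1839-5p at 0.18, miR-30e-5p at 0.18 and miR-23a-3p, counted with miR-23b-3p, at 0.25. The likeness describes 6 libraries that share the division by substitution rate.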

How the data were processed

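Per the methods of the study, RNA of 18 to 30 nt was gel-purified from liver, ligated to adaptors, amplified and sequenced. The authors dropped reads of low quality, adaptors, poly A runs and short inserts. What they deposited is the count of each remaining tag, neither normalized nor filtered by genome. The counts of each library summed to the clean reads of its log.

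Tags were counted for each of 724 RefSeq mature rat entries by their first 18 bases, and entries with the same first 18 bases were merged. TPM is the count divided by total clean reads and multiplied by 1000000. Counts were tested with edgeR 4.0.16 (quasi-likelihood fit and test after filterByExpr, with clean reads as library size and a Benjamini-Hochberg threshold of 0.05) in R 4.3.3. Standard errors were derived from the F statistic and the log2 fold change. DESeq2 1.42.0, with its own size factors in place of clean reads, and limma 3.58.1 were alternatives. On simulated counts of the 167 miRNAs with 52 changed, at the spread of the fit, 6 of 26 changes of log2 1 and 25 of 26 of log2 2 were recovered, with 1 false call. Levels and shares were compared by two-sided exact permutation tests. Hairpins were folded with RNAfold 2.7.2. Reads were called templated where they matched the hairpin from the mature start to their last base. Amplified reads are not independent molecules, so intervals cover counting error only. The labels name no batch.

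The members, the lists of miRNAs of other cells and the division by substitution rate were chosen with earlier results of these data known. Named are the members, the listed miRNAs and the 3 nearest profiles of each member among miRNAs of at least 10 TPM. Lists held 8 red cell, 6 white cell and platelet, 2 endothelial, 4 striated muscle and 5 hepatocyte miRNAs; miR-486-3p and miR-150-5p were not analysed here.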

Additional observations from a re-analysis of the deposited data

How the results depend on the processing

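No member passed an adjusted p of 0.05 under any of the 17 alternative fits, where the adjusted p was 0.615 to 1.00 for miR-451-5p, 0.110 to 1.00 for miR-144-3p and 0.640 to 1.00 for miR-144-5p. The count of miRNAs called was 1 in the fit by total clean reads, 0 with TMM factors, 0 with known miRNA reads as library size, and 1 to 2 when each library was left out; it was 2 without NAFLD replicate 1. With known miRNA reads as library size the median of all miRNAs moved to 0.20 and miR-144-3p had a log2 fold change of 1.09. The fold changes of miR-451-5p, from 0.05 to 0.69, and of miR-144-3p, from 0.53 to 1.29, kept their direction in all 17 fits, and both were lowest without NAFLD replicate 1. With substitution rate as a covariate the median moved to 0.24. The log2 fold change of miR-144-5p ranged from -0.33 to 0.52 with a library left out, in the fit as in mean TPM. It was negative without NAFLD replicate 1 (-0.33) and without normal replicate 2 (-0.04). In these fits the median of all miRNAs tested also moved, to -0.21 and -0.22 in the same order. Within the libraries of high substitution rate the log2 ratio of miR-451-5p was -0.0018. The difference in the share of miR-451-5p of 24 nt or more turned to 4.73 percentage points with each different tag counted a single time, and the cause was not tested. The difference in the miR-144 arms was -16.1 to -9.91 points with a library left out. The labels number replicates 1 to 3 in both groups. With the replicate block, 1 miRNA was called, the log2 fold change was 0.30 for miR-451-5p, 0.89 for miR-144-3p (adjusted p from edgeR 0.220) and 0.11 for miR-144-5p. Same-numbered libraries deviated together with r of 0.15, 0.34 and -0.54, so the numbers were not taken as pairs. miR-144-5p rests on 36 to 108 reads per library. Counting tags with a start shifted by up to 3 bases was added after the data were seen.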
